A study of Homo sapiens with 8 samples.

Results

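The messenger RNAs of 10 regulators of the G1 phase were followed in Jurkat cells with CBAP knocked down or knocked out and in CBAP-expressing cells. They were the cyclins CCND2, CCND3 and CCNE1, the cyclin-dependent kinases CDK2, CDK4 and CDK6, and the kinase inhibitors CDKN1A, CDKN1B, CDKN2C and CDKN2D. They were taken by name as regulators of this phase, and all 10 had a row among the 13453 genes of the expression table. Jurkat is an established human T-cell acute lymphoblastic leukemia (T-ALL) line, and every library came from cells derived from it. The sh-Ctrl cells carried a control shRNA and the sh-CBAP cells an shRNA against CBAP, both as puromycin-selected stable cells. The CBAP-KO+GFP cells were CBAP-KO cells made with CRISPR/Cas9, sorted as single-cell clones and given GFP alone, and the CBAP-reconstituted cells were CBAP-KO cells given CBAP fused to GFP. Each of these 4 conditions had 2 libraries, called replicate 1 and replicate 2 below. For short, sh-Ctrl with sh-CBAP is the shRNA set, and CBAP-reconstituted with CBAP-KO+GFP is the CRISPR set. The sh-Ctrl and CBAP-reconstituted cells are the CBAP-expressing class and the others the CBAP-deficient class.

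D-type cyclins such as CCND3 bind CDK4 and CDK6, and these kinases begin the phosphorylation of the retinoblastoma protein early in G1. CCNE1 with CDK2 completes it at the G1/S boundary, which frees E2F factors to switch on the genes of S phase. The INK4 inhibitors CDKN2C (p18) and CDKN2D (p19) bind CDK4 and CDK6, while the CIP/KIP inhibitors CDKN1A (p21) and CDKN1B (p27) bind cyclin-CDK complexes and block CDK2. T-lymphoid cells are known for using CCND3 and CDK6, and the comparisons below ask whether this set of transcripts differed with CBAP.

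Values are FPKM, fragments scaled to exon length and to the number mapped, so levels can be compared between genes. Summed FPKM still ranged from 362082 in sh-CBAP replicate 1 to 434742 in CBAP-reconstituted replicate 2. Comparisons between libraries therefore depend on the scaling, and calls with quantile normalization and median centring are given below. Changes are differences in log2(FPKM + 1), a scale on which changes of weakly expressed genes come out too small. A change was called at an adjusted p under 0.05 from limma over the 11427 genes whose FPKM averaged 1 or more. In bulk RNA, fewer cells in a given state and less RNA per cell cannot be told apart.

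The depth behind each value is unknown, because FPKM keeps no counts, and each library listed between 606 and 1256 genes at 0. TMEM102, the gene of CBAP, had 4.07 and 4.74 in the sh-Ctrl libraries and 2.69 and 2.89 in the sh-CBAP libraries, and fell by 0.51 on the log2 scale (adjusted p = 0.0287 from limma). In the CRISPR set all 4 libraries listed it at 0. The targeted gene therefore did not check the labels of that set, and the directions given for it rest on the libraries labelled CBAP-reconstituted and CBAP-KO+GFP. Of 11 T-cell markers, 10 were analysed, and CD3D lay between 445.9 and 553.1 in every library. The CBAP-reconstituted libraries stood apart in others: CD5, an antigen of T cells, was at 0.180 and 0.231 there and between 19.7 and 27.4 elsewhere, and CD28, a costimulatory receptor, was at 2.93 and 2.59 against 24.1 to 37.5. The 10 markers summed to 1477 to 1486 FPKM in the CBAP-reconstituted libraries, 1671 to 1864 in the shRNA set and 1970.0 to 2413 in the CBAP-KO+GFP libraries, and 6 of the 10 were called higher in the CBAP-KO+GFP than in the CBAP-reconstituted libraries (10 with quantile normalization and 5 with median centring), beside 23.9% of all tested genes. The B-cell marker CD79A was at 0.732 and 1.09 in the CBAP-reconstituted libraries and between 9.60 and 22.5 elsewhere. The part of these marker differences in the results on the CRISPR set was not tested, and the members' changes and the counts over the gene lists in that set are therefore also given without the CBAP-reconstituted libraries, with sh-Ctrl as the control, a comparison that crosses the sets.

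Promoter sequence shows what stands in front of the genes that moved most in the CRISPR set. The 250 bases before the RefSeq start (GRCh38.p14) are printed for CDK4, which fell most there, and for CDKN1A and CDKN2D, which rose most. Of the 10 genes, 8 matched an entry of the promoter table. Motifs were searched on both strands. Capitals mark the E-box CACGTG in CDK4, the GC box GGGCGG in CDKN1A and the E2F motif TTTNNCGC in CDKN2D. The printed strand is that of the gene, which is minus for CDK4 at chr12:57752311-57752560, plus for CDKN1A at chr6:36678464-36678713 and minus for CDKN2D at chr19:10568980-10569229.
CDK4: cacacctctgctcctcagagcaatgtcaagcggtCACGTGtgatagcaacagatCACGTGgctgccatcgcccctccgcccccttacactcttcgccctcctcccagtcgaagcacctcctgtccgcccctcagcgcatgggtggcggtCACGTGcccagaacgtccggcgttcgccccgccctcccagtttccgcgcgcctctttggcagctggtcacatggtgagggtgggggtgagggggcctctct
CDKN1A: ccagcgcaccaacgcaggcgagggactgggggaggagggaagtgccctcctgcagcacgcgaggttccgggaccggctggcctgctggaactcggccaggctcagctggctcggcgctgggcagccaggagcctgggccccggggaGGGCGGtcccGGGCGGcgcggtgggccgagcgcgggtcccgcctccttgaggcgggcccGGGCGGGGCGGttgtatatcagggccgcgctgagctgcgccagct
CDKN2D: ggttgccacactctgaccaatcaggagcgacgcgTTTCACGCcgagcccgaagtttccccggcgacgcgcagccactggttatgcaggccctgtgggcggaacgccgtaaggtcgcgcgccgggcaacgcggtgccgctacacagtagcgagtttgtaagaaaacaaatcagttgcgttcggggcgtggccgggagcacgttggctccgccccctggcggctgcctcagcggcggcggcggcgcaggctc

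The CDK4 promoter held 3 E-boxes, the letters that MYC with MAX binds, beginning at -216, -196 and -101 from the start. CDKN2C held 1 E-box, and the other 6 promoters searched held none. An E-box stood in 6.3% of the 35116 promoters of this length. CDKN1A held 4 GC boxes, the letters bound by SP1, and its last 2 share a base. This motif was not particular to CDKN1A. CCNE1 held 7, CCND3 held 5, CDK4 and CDK6 held 3 each, CDKN2D held 2 and CDKN1B held 1, while CDKN2C held none. The GC box stood in 42.6% of all promoters. CDKN2D alone of the 8 held the E2F letters, which 5.9% of all promoters held, and none of the 8 held the CHR motif TTTGAA (13.3%) or the FOXO motif GTAAACA (3.0%). These are matches of letters in a window, and RNA levels do not measure binding there.

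**Figure D1:**
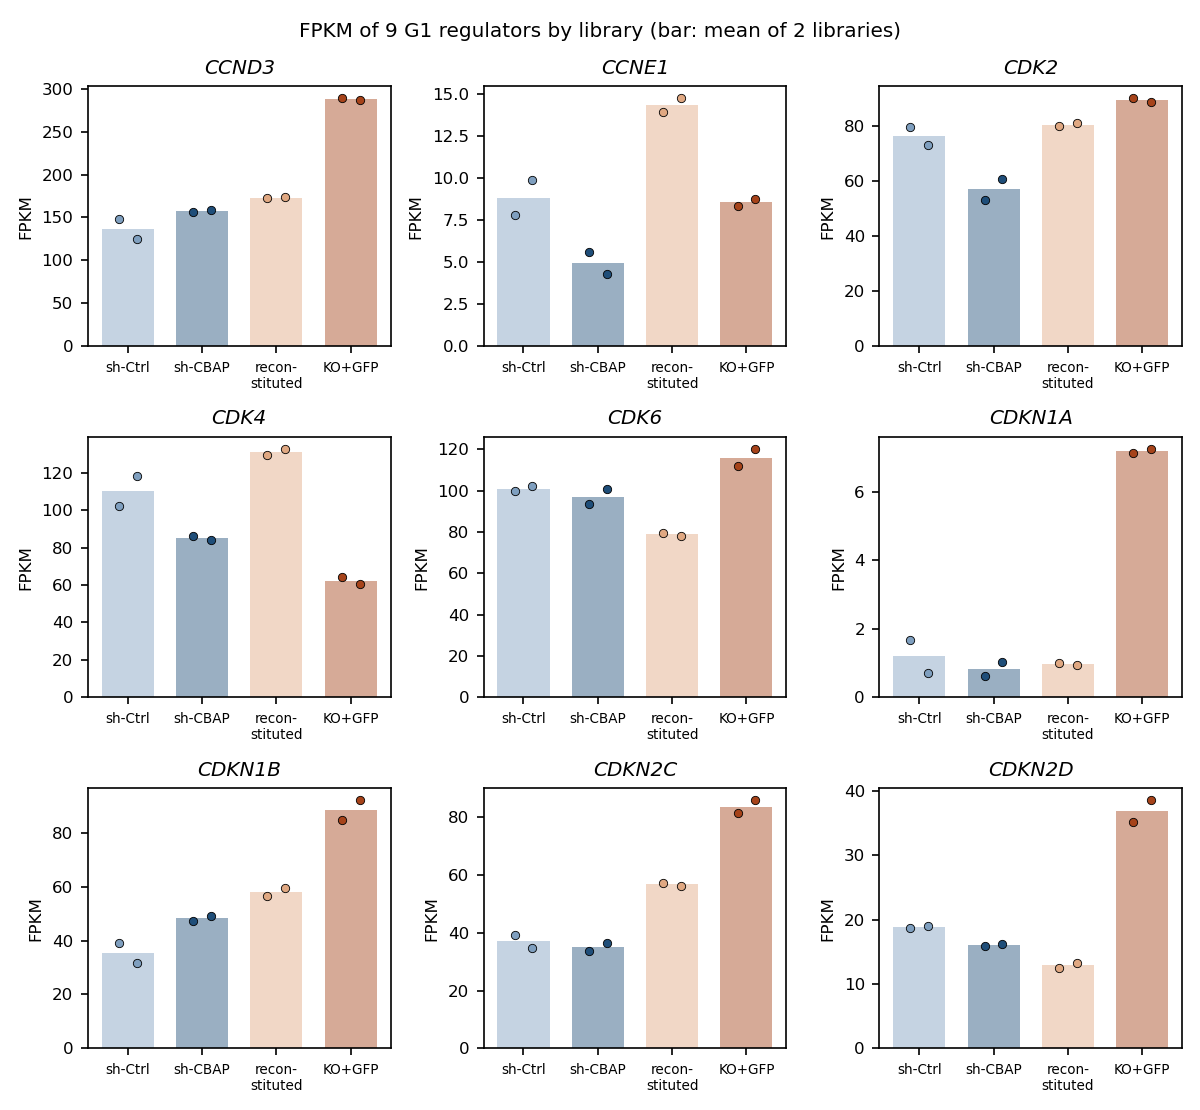
FPKM of 9 of the 10 genes in each library (points) with the mean of the 2 libraries of each condition (bars), on linear axes from 0. The CBAP-KO+GFP libraries are highest for CCND3, CDK2, CDK6 and all 4 inhibitors and lowest for CDK4.

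The CBAP-KO+GFP libraries lay apart from the others for most of the group. For 7 genes, CCND3, CDK2, CDK6 and the 4 inhibitors, both CBAP-KO+GFP values lay above those of all 6 other libraries, and for CDK4 both lay below. CCNE1 and CCND2 lay within the range of the others. The share of all genes lying apart in this way was not counted, so whether this was particular to the group is unknown. Calls in these libraries were common, at 49.9% of all tested genes against CBAP-reconstituted and 41.8% against sh-Ctrl.

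Among the D-type cyclins, CCND3 carried nearly all of the RNA. CCND3 (chromosome 6, 41902672 to 42018095, minus strand, GRCh37) had 147.9 and 125.4 FPKM in the sh-Ctrl libraries and 156.7 and 158.5 in the sh-CBAP libraries. It had 172.3 and 174.1 in the CBAP-reconstituted libraries and 288.6 and 286.5 in the CBAP-KO+GFP libraries. The conditions did not overlap, and their means were ordered from sh-Ctrl (136.6 ± 15.9, SD, n = 2) through sh-CBAP (157.6 ± 1.33) and CBAP-reconstituted (173.2 ± 1.27) to CBAP-KO+GFP cells (287.5 ± 1.53). Within the CRISPR set the CBAP-KO+GFP mean of CCND3 was 1.66-fold that of the CBAP-reconstituted libraries, a log2 change of 0.73 (SE 0.0798, adjusted p = 0.0011 from limma). Against sh-Ctrl the CBAP-KO+GFP change was 1.07 (adjusted p = 0.00257). Within the shRNA set its log2 change was 0.21 (SE 0.0798, adjusted p = 0.148), which became 0.33 and was called without sh-Ctrl replicate 1 (adjusted p = 0.0313) and became 0.09 without sh-Ctrl replicate 2 (adjusted p = 0.243). The 2 changes differed by -0.52 (shRNA minus CRISPR, adjusted p = 0.0195), but this difference was not called when any 1 library of the CRISPR set was left out (adjusted p from 0.0598 to 0.0805).

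CCND2 (chromosome 12, 4378937 to 4414519, plus strand, GRCh37), the other D-type cyclin, was at the floor of the table. It was listed at 0 in both sh-Ctrl libraries and in sh-CBAP replicate 2, at 0.360 in sh-CBAP replicate 1, and between 0.0285 and 0.133 in the CRISPR set. Its mean of 0.0791 FPKM kept it out of the test. CCND1, the remaining D-type cyclin and not a member of the group, was at or below 0.170 in every library.

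CCNE1 (chromosome 19, 30302898 to 30315219, plus strand, GRCh37) encodes cyclin E1, the partner of CDK2. It had 7.80 and 9.91 FPKM in the sh-Ctrl libraries and 5.60 and 4.29 in the sh-CBAP libraries. The CBAP-reconstituted libraries had 13.9 and 14.8, and the CBAP-KO+GFP libraries 8.37 and 8.76. The CBAP-deficient libraries were the lower ones in each set without overlap. The CBAP-KO+GFP values, however, lay between those of the 2 sh-Ctrl libraries. CCNE1 fell by 0.73 on the log2 scale in the shRNA set (SE 0.145, adjusted p = 0.0321 from limma) and by 0.68 in the CRISPR set (SE 0.145, adjusted p = 0.0116). The shRNA-set call was lost with quantile normalization (adjusted p = 0.0543), median centring (0.0534), the replicate block (0.0656) and the shRNA libraries alone (0.223), and without any 1 library of the CRISPR set, sh-Ctrl replicate 2 or sh-CBAP replicate 2 (0.0535 to 0.0933). The difference of these changes was -0.05 (95% interval -0.56 to 0.46, adjusted p = 0.875). With sh-Ctrl in place of the CBAP-reconstituted libraries the log2 change of the CBAP-KO+GFP cells was -0.03 (adjusted p = 0.88), so the CRISPR-set call was not kept with that control. That comparison crosses the sets, and the reason was not tested. The call was also lost without either CBAP-reconstituted library (adjusted p = 0.0558 without replicate 1 and 0.0731 without replicate 2) and without CBAP-KO+GFP replicate 1 (adjusted p = 0.0551).

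CDK4, a kinase partner of the D-type cyclins, fell in both sets, as CCNE1 did. CDK4 (chromosome 12, 58141510 to 58149796, minus strand, GRCh37) had 102.0 and 118.2 FPKM in the sh-Ctrl libraries and 86.0 and 84.1 in the sh-CBAP libraries. It had 129.5 and 132.4 in the CBAP-reconstituted libraries and 64.3 and 60.3 in the CBAP-KO+GFP libraries. Of the 10 genes it was the only one whose 4 CBAP-deficient values all lay apart from the 4 CBAP-expressing values, with class means of 73.7 ± 13.2 and 120.5 ± 13.8 (SD, n = 4). The share of all genes separated in this way was not counted, and the class change of CDK4 was not called (adjusted p = 0.0736 from limma). CDK4 fell by 1.06 on the log2 scale in the CRISPR set (SE 0.079, adjusted p = 0.000308 from limma), to 0.476 of the CBAP-reconstituted mean. In the shRNA set it fell by 0.37 (SE 0.079, adjusted p = 0.0404), to 0.772 of the sh-Ctrl mean. This shRNA-set call was lost with quantile normalization (adjusted p = 0.0718), median centring (0.0692), the replicate block (0.0718) and the shRNA libraries alone (0.23), and whenever 1 library other than sh-Ctrl replicate 1 was left out (0.063 to 0.105). The fall was larger in the CRISPR set (difference 0.69, adjusted p = 0.00745). With sh-Ctrl as the control in place of the CBAP-reconstituted libraries the CBAP-KO+GFP change was -0.81 (adjusted p = 0.00467). TSPAN31 on the opposite strand shares 1369 of the 3094 exon bases of CDK4 (44.2%), and whether the counting used strand is not given in the sources used here. TSPAN31 was between 1.10 and 4.24 FPKM in all libraries.

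CDK6 (chromosome 7, 92234235 to 92465887, minus strand, GRCh37), the other partner of the D-type cyclins, moved the opposite way in the CRISPR set. It had 79.5 and 78.3 FPKM in the CBAP-reconstituted libraries and 112.0 and 120.0 in the CBAP-KO+GFP libraries. The shRNA set lay between them, with 99.7 and 102.3 in the sh-Ctrl and 93.5 and 100.7 in the sh-CBAP libraries, which overlapped. CDK6 rose by 0.55 on the log2 scale in the CRISPR set (SE 0.0591, adjusted p = 0.00103 from limma). Its log2 change in the shRNA set was -0.06 (adjusted p = 0.564), and +0.05 with quantile normalization. The changes differed by -0.61 (adjusted p = 0.0047). With sh-Ctrl as the control the CBAP-KO+GFP change was 0.20 and was not called (adjusted p = 0.0746).

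The balance of these kinases turned over in the CRISPR set. CDK4 made up 62.0% and 62.8% of the summed FPKM of CDK4 and CDK6 in the CBAP-reconstituted libraries and 36.5% and 33.4% in the CBAP-KO+GFP libraries. In the shRNA set its share was 50.6% and 53.6% in the sh-Ctrl libraries and 47.9% and 45.5% in the sh-CBAP libraries. The share was above 50% in all 4 CBAP-expressing libraries and below it in all 4 CBAP-deficient ones, which is given as a description with no test. The summed FPKM of CDK4 and CDK6 ranged from 176.2 to 220.5.

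CDK2 (chromosome 12, 56360565 to 56366573, plus strand, GRCh37) was lower in the shRNA set. It had 79.3 and 73.1 FPKM in the sh-Ctrl libraries, 53.2 and 60.5 in the sh-CBAP libraries, 79.8 and 80.8 in the CBAP-reconstituted libraries and 89.8 and 88.6 in the CBAP-KO+GFP libraries. The sh-CBAP libraries were the lowest of all 8. CDK2 fell by 0.42 on the log2 scale in the shRNA set (SE 0.0755, adjusted p = 0.0264 from limma), and its change in the CRISPR set was 0.15 (adjusted p = 0.15), which was called with quantile normalization (0.38, adjusted p = 0.00481) and in the libraries of that set alone (0.15, adjusted p = 0.00599). The shRNA-set call was lost with the replicate block (adjusted p = 0.0551), in the shRNA libraries alone (0.208), and without sh-Ctrl replicate 1 or any 1 library of the CRISPR set (0.0598 to 0.0844). Against sh-Ctrl the CBAP-KO+GFP change was 0.23 (adjusted p = 0.094). The changes differed by -0.57 (adjusted p = 0.0123), a difference not called without CBAP-reconstituted replicate 1 (adjusted p = 0.0588) or replicate 2 (adjusted p = 0.0552).

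**Figure D2:**
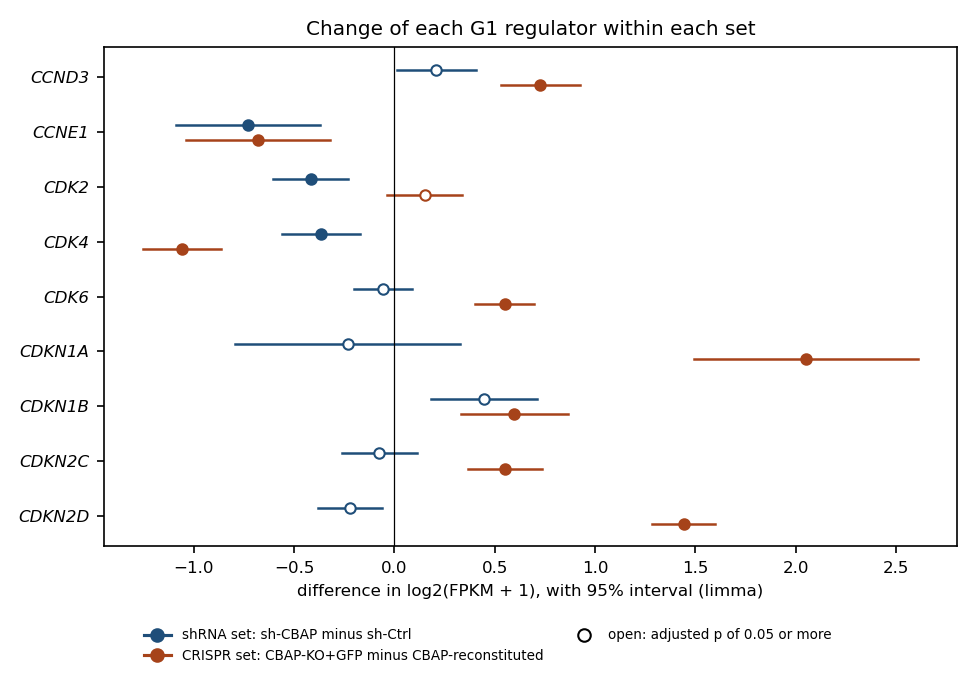
Difference in log2(FPKM + 1) of each tested gene within the shRNA set (blue) and the CRISPR set (brown), with 95% intervals from limma, filled where the adjusted p is under 0.05. The 4 inhibitors, CCND3 and CDK6 rose in the CRISPR set, and CDK4 and CCNE1 fell in both sets.

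All 4 inhibitors rose in the CRISPR set, and none was called in the shRNA set. CDKN1A (chromosome 6, 36644237 to 36655114, plus strand, GRCh37), which encodes p21, was low in 6 of the 8 libraries. It had 1.68 and 0.706 FPKM in the sh-Ctrl, 0.630 and 1.03 in the sh-CBAP and 0.996 and 0.954 in the CBAP-reconstituted libraries, and these 3 conditions overlapped. It had 7.14 and 7.24 in the CBAP-KO+GFP libraries, a mean 7.38-fold that of the CBAP-reconstituted libraries. CDKN1A passed the filter on a mean FPKM of 1 only through these CBAP-KO+GFP libraries, so its calls are given as a description. Its log2 change in the CRISPR set was 2.05 (SE 0.226, adjusted p = 0.00112 from limma) and in the shRNA set -0.23 (SE 0.226, adjusted p = 0.532), and the difference of the changes was -2.29 (adjusted p = 0.00486). Without sh-Ctrl replicate 1, the higher of that pair, the shRNA-set value was 0.09 (adjusted p = 0.752). Against sh-Ctrl the CBAP-KO+GFP change was 1.94 (adjusted p = 0.0068). Even there CDKN1A was the lowest of the 4 inhibitors, with 3.24% to 3.43% of their summed FPKM.

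CDKN1B (chromosome 12, 12838432 to 12875303, plus strand, GRCh37), the other CIP/KIP gene, had its higher values in the CBAP-deficient libraries of each set. It had 39.2 and 31.6 FPKM in the sh-Ctrl, 47.4 and 49.3 in the sh-CBAP, 56.5 and 59.6 in the CBAP-reconstituted and 84.8 and 92.1 in the CBAP-KO+GFP libraries, with no overlap between conditions. It rose by 0.60 on the log2 scale in the CRISPR set (SE 0.107, adjusted p = 0.0063 from limma). In the shRNA set its log2 change was 0.45 (SE 0.107, adjusted p = 0.0515), just short of the threshold, and it was called with quantile normalization (adjusted p = 0.0409), with median centring (0.0371), with genes listed at 0 left out (0.0287) and without sh-Ctrl replicate 1 (0.0301). The changes differed by -0.15 (95% interval -0.53 to 0.22, adjusted p = 0.469). With sh-Ctrl as the control the CBAP-KO+GFP change was 1.30 (adjusted p = 0.00301), and the CBAP-reconstituted libraries themselves lay above the shRNA set.

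CDKN2C (chromosome 1, 51426417 to 51440306, plus strand, GRCh37), the more abundant INK4 inhibitor, had 39.1 and 34.8 FPKM in the sh-Ctrl and 33.7 and 36.4 in the sh-CBAP libraries, which overlapped. It had 57.3 and 56.1 in the CBAP-reconstituted and 81.3 and 85.8 in the CBAP-KO+GFP libraries. It rose by 0.55 on the log2 scale in the CRISPR set (SE 0.0748, adjusted p = 0.00234 from limma). Its log2 change in the shRNA set was -0.08 (adjusted p = 0.546), or 0.0068 without sh-Ctrl replicate 1, and the changes differed by -0.63 (adjusted p = 0.00871). With sh-Ctrl as the control the CBAP-KO+GFP change was 1.16 (adjusted p = 0.00181).

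CDKN2D (chromosome 19, 10677136 to 10679735, minus strand, GRCh37), the second INK4 inhibitor, gave the smallest adjusted p of the group. It had 18.7 and 19.1 FPKM in the sh-Ctrl, 15.9 and 16.2 in the sh-CBAP, 12.5 and 13.3 in the CBAP-reconstituted and 35.1 and 38.5 in the CBAP-KO+GFP libraries, with no overlap between conditions. CDKN2D rose by 1.44 on the log2 scale in the CRISPR set (SE 0.0644, adjusted p = 5.51e-05 from limma). Its CBAP-KO+GFP mean was 2.85-fold that of the CBAP-reconstituted libraries. Its log2 change in the shRNA set was -0.22 (SE 0.0644, adjusted p = 0.0831), and the changes differed by -1.66 (adjusted p = 0.000219). With sh-Ctrl as the control the CBAP-KO+GFP change was 0.93 (adjusted p = 0.00193).

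**Figure D3:**
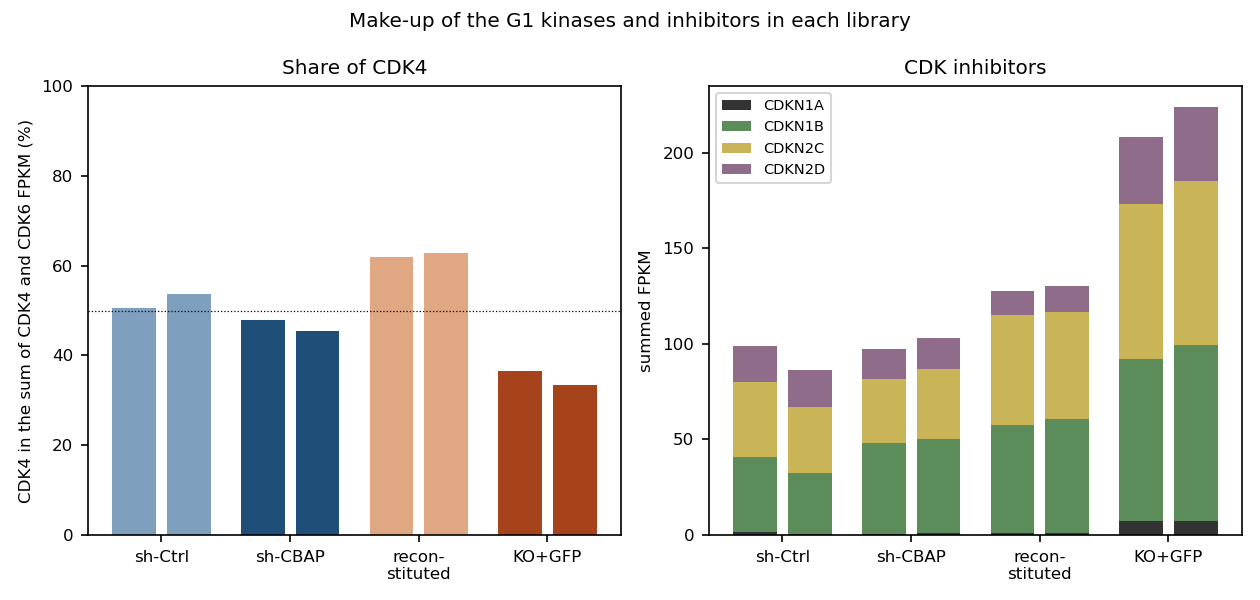
Left, percentage of CDK4 in the summed FPKM of CDK4 and CDK6 in each library, with a dotted line at 50%. Right, summed FPKM of the 4 inhibitors in each library, stacked by gene. The CBAP-KO+GFP libraries have the lowest CDK4 share (33.4% and 36.5%) and the highest inhibitor sums (208.4 and 223.7).

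Added together, the 4 inhibitors came to 98.7 and 86.2 FPKM in the sh-Ctrl, 97.6 and 102.9 in the sh-CBAP, 127.4 and 130.0 in the CBAP-reconstituted and 208.4 and 223.7 in the CBAP-KO+GFP libraries. CDKN1B and CDKN2C made up most of the sum in every library. CDKN2D took 9.85% and 10.2% of it in the CBAP-reconstituted libraries and 16.9% and 17.2% in the CBAP-KO+GFP libraries. Per unit of summed CDK2, CDK4 and CDK6 the inhibitors stood at 0.351 and 0.294 in the sh-Ctrl, 0.419 and 0.420 in the sh-CBAP, 0.441 and 0.446 in the CBAP-reconstituted and 0.783 and 0.831 in the CBAP-KO+GFP libraries. The ratio was higher in the CBAP-deficient libraries of each set, with no test. The summed kinases ranged from 232.6 to 293.5 FPKM.

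Counted over the group, 8 of the 9 tested genes were called in the CRISPR set, 6 higher and 2 lower. Of all tested genes 49.9% were called there, 23.9% higher and 25.9% lower, so a call in this set was common. CDKN1A, among the genes called higher, passed the filter only through the CBAP-KO+GFP libraries. With a mean FPKM of at least 5, which left it out, 7 of 8 tested members were called, 5 higher and 2 lower. In all 4454 of 8677 genes were called with that filter. The median log2 change of the 9 genes was 0.55, against 0.00 over all tested genes. With the CBAP-reconstituted libraries left out and sh-Ctrl as the control, an alternative chosen after seeing the data, 6 of the 9 were called, 5 higher and 1 lower, beside 41.8% of all tested genes. CCNE1 and CDK6 were the ones lost. Over all tested genes, 3057 were called higher and 1719 lower with this control, and the median log2 change was 0.14.

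In the shRNA set 3 of the 9 were called, CCNE1, CDK2 and CDK4, all lower. Over all tested genes 12.3% were called, 3.62% higher and 8.7% lower, and of these calls 29.4% were higher, against 50.4% with quantile normalization and 44.5% with median centring. With quantile normalization or median centring 2 of the 9 were called, CDK2 lower and CDKN1B higher, so the all-lower direction of the shRNA-set calls depended on the scaling. In the shRNA libraries alone, where limma called 75 genes in all, 0 of the 9 were called, with an adjusted p of 0.223 for CCNE1, 0.208 for CDK2 and 0.23 for CDK4. Likewise 0 were called when any 1 library of the CRISPR set was left out of the shared estimate of the spread. Without sh-Ctrl replicate 2 or without sh-CBAP replicate 2 only CDK2 was called, and without sh-Ctrl replicate 1 there were 4, CCNE1 and CDK4 lower and CCND3 and CDKN1B higher. The median log2 change of the 9 was -0.22, against -0.06 over all tested genes.

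A test of the difference between the sets called 7 of the 9 genes, with 1 difference positive (CDK4) and 6 negative. CDKN1A, with the limit of its filter given above, was among the negative ones. Of all tested genes 33.8% differed, 15.5% positive and 18.3% negative. The knockdown or knockout method, the cells and any difference in the processing of the sets cannot be told apart here. When the classes were compared, 4 libraries against 4, 0 of the 9 genes were called by limma, beside 0.621% of all tested genes. At an unadjusted p under 0.05 limma gave 2, CDK4 (log2 change -0.71, adjusted p = 0.0736) and CCNE1 (-0.71, adjusted p = 0.189). With the set as a covariate 4 were called, CDK4 and CCNE1 lower and CCND3 and CDKN1B higher, beside 12.3% of all tested genes. Their adjusted p values were 0.0312, 0.0152, 0.049 and 0.0184.

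Over the 8 libraries the levels of some members ran together. On log2(FPKM + 1), Pearson's r was 0.965 between CCND3 and CDKN1B, 0.928 between CDKN1A and CDKN2D and -0.866 between CDK4 and CDKN2D. The 8 points share 4 conditions and 2 sets, so these are descriptions. Among tested genes outside the group, the most alike was UBE2H for CCND3 (r = 0.995), PAFAH1B3 for CCNE1 (0.994), NOB1 for CDK4 (0.995) and BHLHE23 for CDK6 (0.988). For the inhibitors it was ANKRD50 for CDKN1A (0.998), COL6A1 for CDKN1B (0.989), TP53INP2 for CDKN2C (0.995) and FAM134B for CDKN2D (0.996).

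**Figure D4:**
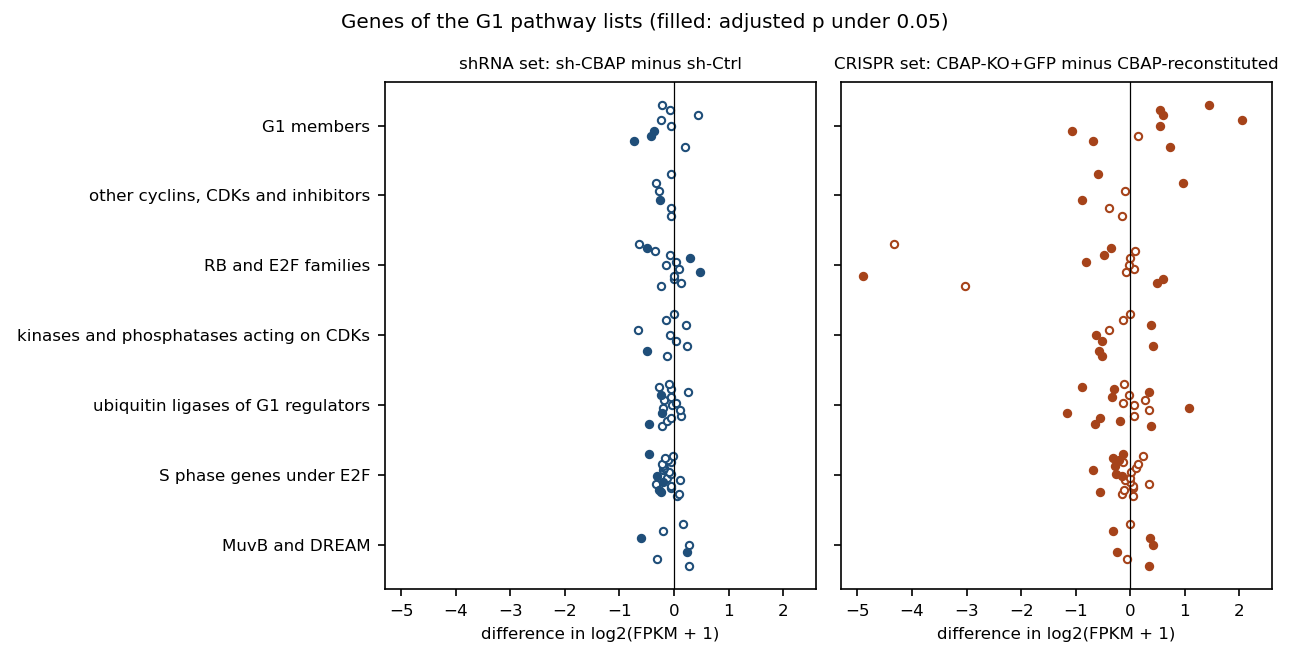
Difference in log2(FPKM + 1) of each tested gene of the group and of 6 further lists of the G1 pathway, in the shRNA set (left) and the CRISPR set (right), filled where the adjusted p is under 0.05. The 3 points far to the left in the RB and E2F families on the right are genes listed at 0 in CBAP-KO+GFP libraries.

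Around the group, the other genes of the pathway were called in both directions, and the counts of the lists below stand beside 12.3% of all tested genes called in the shRNA set (3.62% higher, 8.7% lower) and 49.9% in the CRISPR set (23.9% higher, 25.9% lower). When sh-Ctrl was the control of the CBAP-KO+GFP cells, 41.8% of all tested genes were called, 3057 genes higher and 1719 lower. For the single genes named from the lists, calls with libraries left out were not followed. Of 6 tested further cyclins, CDKs and inhibitors, 1 was lower in the shRNA set, and 1 was higher and 2 lower in the CRISPR set. CCNB1, the mitotic cyclin, fell in both, by 0.26 (adjusted p = 0.0459 from limma) and by 0.88 (adjusted p = 0.000215). CDKN1C, the third CIP/KIP gene, rose by 0.96 in the CRISPR set (adjusted p = 0.0237), with 4.88 and 5.37 FPKM in the CBAP-reconstituted and 11.2 and 10.7 in the CBAP-KO+GFP libraries. With quantile normalization 0 of these 6 genes were called by limma in the shRNA set, while 2 were lower and 0 higher in the CRISPR set. With median centring 0 were called in the shRNA set, and 1 was higher and 4 were lower in the CRISPR set. Against sh-Ctrl, the CBAP-KO+GFP cells had 2 higher and 1 lower. CCNE2, the other E-type cyclin, which was chosen after its values were seen, was more abundant than CCNE1 in every library and made up 60.3% to 77.3% of their summed FPKM.

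Of 13 genes of the RB and E2F families, 2 were higher and 1 lower in the shRNA set, and 2 were higher and 4 lower in the CRISPR set. E2F1, with the listed zeros given below, is 1 of those 4. Against sh-Ctrl 5 were higher and 0 lower by limma in the CBAP-KO+GFP cells. TFDP1, the partner of E2F factors, fell in both sets, by 0.49 (adjusted p = 0.0231 from limma) and by 0.35 (adjusted p = 0.017). Its CBAP-KO+GFP values of 65.4 and 69.6 FPKM were near the sh-Ctrl values of 69.9 and 75.2, and it was not called lower against sh-Ctrl. The CBAP-reconstituted libraries had 86.8 and 86.3. E2F2, an activating E2F, rose by 0.47 in the shRNA set (adjusted p = 0.0295), and RBL2, the pocket protein p130, rose by 0.60 in the CRISPR set (adjusted p = 0.00841). E2F1 was listed at 0 in 6 libraries and at 28.8 in both CBAP-reconstituted libraries, which gives no fold change. RB1 was listed at 0 in CBAP-KO+GFP replicate 2 and at 190.7 in replicate 1, and TFDP2 at 0 in CBAP-KO+GFP replicate 1 and at 49.1 in replicate 2. These last 2 genes were chosen after their values were seen, and a listed 0 of this kind can be a failed estimate.

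Upstream of the kinases, 1 of 9 tested genes that activate or restrain CDKs was called in the shRNA set, against 6 in the CRISPR set, 2 of them higher. With quantile normalization or median centring 1 was higher and 1 lower in the shRNA set. In the CBAP-KO+GFP cells 3 were called against sh-Ctrl, 2 of them higher. CCNH, the cyclin of the CDK-activating kinase, fell in both, by 0.50 (adjusted p = 0.0273 from limma) and by 0.57 (adjusted p = 0.00423). MNAT1, the assembly factor of the same complex, rose by 0.42 in the CRISPR set (adjusted p = 0.044), and CDC25B, a phosphatase that activates CDKs, fell by 0.62 (adjusted p = 0.0016). Of 17 genes of the ubiquitin ligases that act on G1 regulators, 3 were lower in the shRNA set, and 3 were higher and 7 lower in the CRISPR set. With quantile normalization 1 was higher and 2 lower in the shRNA set, and 4 were higher and 5 lower in the CRISPR set. With median centring 1 was higher and 2 lower in the shRNA set, and 3 were higher and 8 lower in the CRISPR set. Compared with sh-Ctrl, the CBAP-KO+GFP cells had 2 higher and 4 lower. SKP2, which marks CDKN1B for degradation, fell in both, by 0.45 (adjusted p = 0.0243) and by 0.65 (adjusted p = 0.00158). RBX1, the RING subunit of cullin ligases, fell by 1.16 in the CRISPR set (adjusted p = 3.87e-05) and by 0.22 in the shRNA set (adjusted p = 0.0372), and FBXO4 rose by 1.07 in the CRISPR set (adjusted p = 0.00154).

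Downstream, 5 of 22 S phase genes that E2F factors control were called in the shRNA set, all lower, and 8 in the CRISPR set, all lower. The 2 scalings disagreed in the CRISPR set. Quantile normalization gave 9 higher and 3 lower there, and median centring 0 higher and 12 lower. The median log2 change of the 22 genes was -0.15 for the shRNA set, against -0.10 for the CRISPR set, beside -0.06 and 0.00 over all tested genes. FEN1, the flap endonuclease, fell by 0.47 in the shRNA set (adjusted p = 0.00468 from limma). TK1, thymidine kinase, fell by 0.68 in the CRISPR set (adjusted p = 0.00127). With quantile normalization or median centring 3 of the 22 were called in the shRNA set. Against sh-Ctrl the CBAP-KO+GFP cells had 2 higher and 3 lower.

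Of 7 genes of the MuvB core and the DREAM complex, 1 was higher and 1 lower in the shRNA set, and 3 were higher and 2 lower in the CRISPR set. In the shRNA set 4 were higher and 1 lower with quantile normalization, and 3 were higher and 1 lower with median centring. Relative to sh-Ctrl, 4 were higher and 1 lower in the CBAP-KO+GFP cells. LIN52 rose by 0.25 in the shRNA set (adjusted p = 0.0439 from limma) and fell by 0.23 in the CRISPR set (adjusted p = 0.0168). RBBP4 moved the other way, with a fall of 0.61 in the shRNA set (adjusted p = 0.0278) and a rise of 0.36 in the CRISPR set (adjusted p = 0.0418). In the CRISPR set LIN54 rose by 0.43 (adjusted p = 0.00468), and MYBL2, the B-MYB factor that joins the MuvB core, fell by 0.32 (adjusted p = 0.00404).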

How the data were processed

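RNA-seq of 8 libraries from Jurkat-derived cells, 2 of each of 4 conditions, was analysed. The authors sequenced 100-bp paired ends, aligned them to hg19 with TopHat 2 and estimated FPKM with cuffdiff; the deposited table gives 1 FPKM value per gene and library, with no counts, so depth is unknown and precision rests on 2 libraries per condition. The submitters' processing notes also name CASAVA 1.8, Bowtie and Cufflinks. The sample descriptions carry short codes, which differ between libraries and may name clones, but nothing in the labels says that replicates are separate clones or cultures, so p values measure only the spread between these libraries.

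Genes whose FPKM averaged 1 or more were tested on log2(FPKM + 1), pseudocount 1, with limma 3.58.1 (R 4.3.3, empirical Bayes with trend, Benjamini-Hochberg over 11427 genes, two-sided, adjusted p under 0.05). A model with 1 mean per condition over all 8 libraries gave the change within each set and their difference, and a second model compared the classes. The first model shares 1 estimate of the spread over the 4 conditions, so a gene has the same SE in both sets. The spreads were unequal. From the libraries of each set alone, the SE of every tested member was larger in the shRNA set, for CCND3 0.108 against 0.0162. The script was tested on simulated data. Python 3.11.15, pandas 2.3.3 and matplotlib 3.10.9 made the tables and plots.

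The members and the gene lists were chosen with earlier results of these data known. Beside the 10 members, the genes named were, for each list and within-set comparison, the called gene with the largest non-overlapping change in each direction, for the tested members the most correlated gene, and TMEM102. Outside this rule, CCND1, CCNE2, RB1, TFDP2, TSPAN31 and the markers CD3D, CD5, CD28 and CD79A were named after their values were seen. Gene positions are from GENCODE release 44 lifted to GRCh37 and promoters from RefSeq GRCh38.p14. Alternatives changed the scaling, the filter, the pseudocount, the trend, the covariate, the block and the libraries used. CDK3 shares an entry with TEN1, and CDKN2A, CDKN2B, LAT and most markers of other lineages were not analysed here. Some genes fixed by these rules, and a list that needs one of them, are not reported here.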

Additional observations from a re-analysis of the deposited data

Results flagged for a closer look

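The values below are differences of changes, with that of the CRISPR set subtracted from that of the shRNA set on log2(FPKM + 1), each tested as an interaction in limma with an adjusted p under 0.05. The causes were not tested. Among the 9 tested members the difference was -0.52 for CCND3, -0.57 for CDK2, 0.69 for CDK4, -0.61 for CDK6, -2.29 for CDKN1A, -0.63 for CDKN2C and -1.66 for CDKN2D.

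Among the pathway genes named, the difference was 0.62 for CCNB1, -1.29 for CDKN1C, 0.55 for E2F2, -0.59 for RBL2, 0.55 for CDC25B, -1.28 for FBXO4 and 0.94 for RBX1. It was -0.34 for FEN1, 0.48 for TK1, 0.48 for LIN52 and -0.97 for RBBP4. For E2F1 the value of 4.90 follows from its listed zeros and the pseudocount. Among the genes most like a member it was -0.40 for UBE2H, 0.48 for NOB1, -1.90 for BHLHE23, -0.68 for ANKRD50, -0.57 for TP53INP2 and -2.25 for FAM134B.

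Dixon's test flagged a library within its class in 2 of the 71 groups of 4 examined. For 4 values from 1 population chance would flag about 3.5, but each group pooled 2 conditions, so that number is no measure here. CCND2 was at 0.360 FPKM in sh-CBAP replicate 1. MYBL2 was at 90.9 in sh-CBAP replicate 2, not far from 86.8 in sh-CBAP replicate 1 and 87.0 in both CBAP-KO+GFP libraries.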

How the results depend on the processing

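With 2 libraries per condition and no counts, precision rests on the spread between libraries, and calls near the threshold depended on which libraries entered. In the CRISPR set 7 to 9 members were called under every alternative, and 5 to 7 differed between the sets. Of the members 9 were tested, except 8 with a mean FPKM of at least 5, where CDKN1A dropped out, and 10 with no filter. With sh-Ctrl as the control of the CBAP-KO+GFP cells, which crosses the sets, 6 were called. The shRNA-set count of 3 went to 0 with the libraries of that set alone, where 75 genes in all were called. Leaving out 1 library at a time gave 0 to 4 of the 9, with 306 to 2376 genes in all. The same ranges over all genes were 3376 to 6847 in the CRISPR set and 1849 to 5149 for the difference. Between the classes, where 71 genes were called, leaving 1 out gave 8 to 76, no filter 108, quantile normalization 173, median centring 161 and the set as a covariate 1404, with 4 of the 9 members under that covariate and 0 under the other alternatives.

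The labels do not say whether replicate numbers pair the libraries, and the main model did not treat them as paired. The deviations of same-numbered libraries correlated at 0.146 for the shRNA set, 0.0239 for the CRISPR set, and lowest at -0.0629 between sh-Ctrl and CBAP-reconstituted. Correlations this weak cannot exclude pairing. With the replicate block 0 of the 9 members and 776 genes were called in the shRNA set and 11 genes between the classes, while the counts of members in the CRISPR set (8) and for the difference (7) were the same.

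The signs that turned all belonged to changes that were not called. With quantile normalization these were CDK6 in the shRNA set (0.053), CDK2 between the classes (0.0348) and the difference for CCNE1 (0.0773, and 0.0682 with median centring). Leaving 1 library out moved CDKN1A in the shRNA set from -0.56 to 0.0915, CDKN2C there from -0.16 to 0.0068, the difference for CCNE1 from -0.21 to 0.11 and CDK2 between the classes from -0.24 to 0.0039. Median centring raised the share of positive calls for the difference from 45.9% to 59.7%, and quantile normalization that of higher calls between the classes from 33.8% to 54.3%. The cause of these shifts was not tested.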
